A study of Rattus norvegicus with 9 samples.

Results

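Secreted antagonists of bone morphogenetic protein (BMP) and Wnt signalling, the ligands Bmp4 and Bmp7, and the Id genes that BMP signalling switches on were followed in rat white matter lesions at 5, 14 and 28 days post lesion (dpl). The 10 genes named for this purpose were Sostdc1, Dkk3, Sfrp1, Sfrp4, Bmp4, Bmp7, Id1, Id2, Id3 and Id4. They were chosen with their levels in these samples known, and a probe was taken as theirs where the platform annotation gives it that gene symbol. Of the 10 genes, 6 had a probe among the 10552 probes of the authors' normalized table, with 1 probe each: Sostdc1, Dkk3, Bmp4, Id1, Id2 and Id3. For Sfrp1, Sfrp4, Bmp7 and Id4 no probe is named in the annotation used here, and they were not analysed. Between 5 and 14 dpl the mean level of Sostdc1 was 15.8-fold higher and that of Dkk3 was 2.52-fold higher, with 2 of 3 arrays of Sostdc1 and 1 of Dkk3 at background at 5 dpl. At 28 dpl their means were 10.9-fold and 2.85-fold above those at 5 dpl. The mean of Bmp4 at 28 dpl was 0.642 of that at 5 dpl, but the groups overlapped and the difference passed the test only with all of 3 single arrays kept. Id1, Id2 and Id3 differed by at most 0.35 on the log2 scale between the means of any pair of time points.

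BMP ligands bind pairs of type I and type II receptor kinases, which phosphorylate the transcription factors SMAD1, SMAD5 and SMAD9, and the Id genes are among their best known direct targets. Id proteins lack a DNA-binding region and hold other helix-loop-helix proteins, such as the E proteins and their partners Olig1 and Olig2, away from DNA. Wnt ligands bind frizzled receptors and LRP co-receptors and stabilise beta-catenin. Both pathways are known to restrain the differentiation of oligodendrocyte progenitors into myelin-forming cells, and BMPs also favour astrocyte formation. Secreted antagonists bind the ligands or the receptors outside the cell.

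The lesions lay in a white matter tract, the caudal cerebellar peduncle, of Sprague Dawley rats that were 12 weeks old when the lesion was made with 0.1% ethidium bromide, which kills oligodendrocytes and astrocytes locally. Lesions were cut from frozen brains by laser capture at 5, 14 or 28 dpl, and each time point has 3 arrays, called biological replicates by the submitters. All 9 samples carried a lesion, and no unlesioned tissue was among the groups. The sources used here do not say whether an array holds 1 animal or a pool, and the p-values therefore reflect the spread among arrays, which may be partly technical.

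Levels are the authors' normalized values on a log2 scale, with a median of 8.31 on every array, and a value at or below 7.31 was treated as background. One array stood apart. On the first principal component, with 70.1% of the variance, 5 dpl replicate 1 had a score of -23.74 and both other arrays of its group one of -37.70. Its summed level of 5 neuron markers was 7786, against 1152 to 2452 over the other 5 and 28 dpl arrays and 1017 to 1213 at 14 dpl. Between 8727 and 9330 targets were detected on an array, and precision is limited by having 3 arrays per time point. How far the authors' normalization compresses dim signals was not analysed, and folds take the scale to be plain log2.

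Sostdc1 encodes a secreted protein, also called Wise or Usag-1, that binds BMPs and can modulate Wnt signalling through LRP co-receptors. Its level was 6.98, 6.98 and 7.76 on the 3 arrays at 5 dpl. At 14 dpl it was 10.39, 11.56 and 11.73, and at 28 dpl it was 11.22, 9.73 and 11.11. Every later array stood above every array at 5 dpl, where only replicate 3 was above background, and the ranges at 14 and 28 dpl overlapped. The means were 7.24 ± 0.45 (SD, n = 3), 11.23 ± 0.73 (SD, n = 3) and 10.68 ± 0.83 (SD, n = 3) at 5, 14 and 28 dpl. The difference was 3.98 (SE 0.47) between 14 and 5 dpl, the highest of all 10552 probes. It was 3.44 (SE 0.47) between 28 and 5 dpl, in place 19 from the highest. Because this gene was chosen for this pattern, these differences are a description. Between 28 and 14 dpl the difference was -0.54 (SE 0.47), with a 95% interval from -1.61 to 0.52. Leaving out 1 array at a time gave differences of 3.73 to 4.40 between 14 and 5 dpl, and 3.85 without the array that stood apart.

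**Figure D1:**
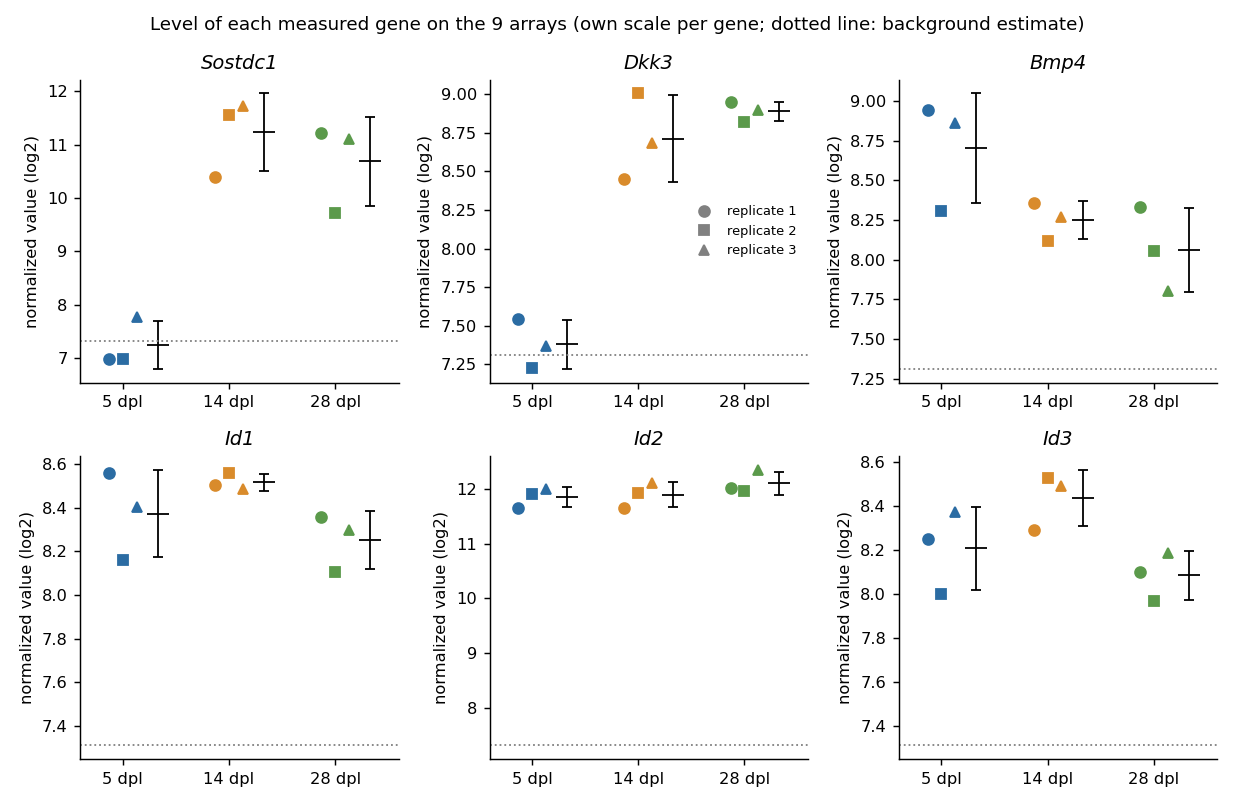
Normalized log2 level of each of the 6 measured genes on the 9 arrays by time point, with the symbol showing the replicate, the horizontal bar the mean, the error bar 1 SD over 3 arrays and the dotted line the background of 7.31. Sostdc1 and Dkk3 sit near background at 5 dpl and clear of it later, while Id2 lies between 11.65 and 12.35 on all arrays.

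The genes whose pattern lay nearest to that of Sostdc1 were Scn7a, Rxrg, Dhh, Pmp22 and Col14a1. Nearness is the root mean square distance over the 9 arrays after each gene was centred on its own mean, computed for 7573 genes. It was 0.436 for Scn7a, a sodium channel subunit, 0.507 for Rxrg, the retinoid X receptor gamma, and 0.598 for Dhh, a hedgehog ligand. It was 0.629 for Pmp22, a membrane protein of peripheral myelin, and 0.634 for Col14a1, a fibril-associated collagen. Mean levels of Scn7a were 7.23, 10.46 and 10.65 at 5, 14 and 28 dpl, and those of Rxrg were 8.18, 11.53 and 11.06. As for Sostdc1, replicate 1 was the lowest 14 dpl array for Scn7a, with 9.75 against 10.99 and 10.64, and replicate 2 the lowest 28 dpl array, below the 11.10 and 10.84 of the others. Because nearness was measured on these same arrays, a like order of replicates is part of how Scn7a was picked.

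**Figure D2:**
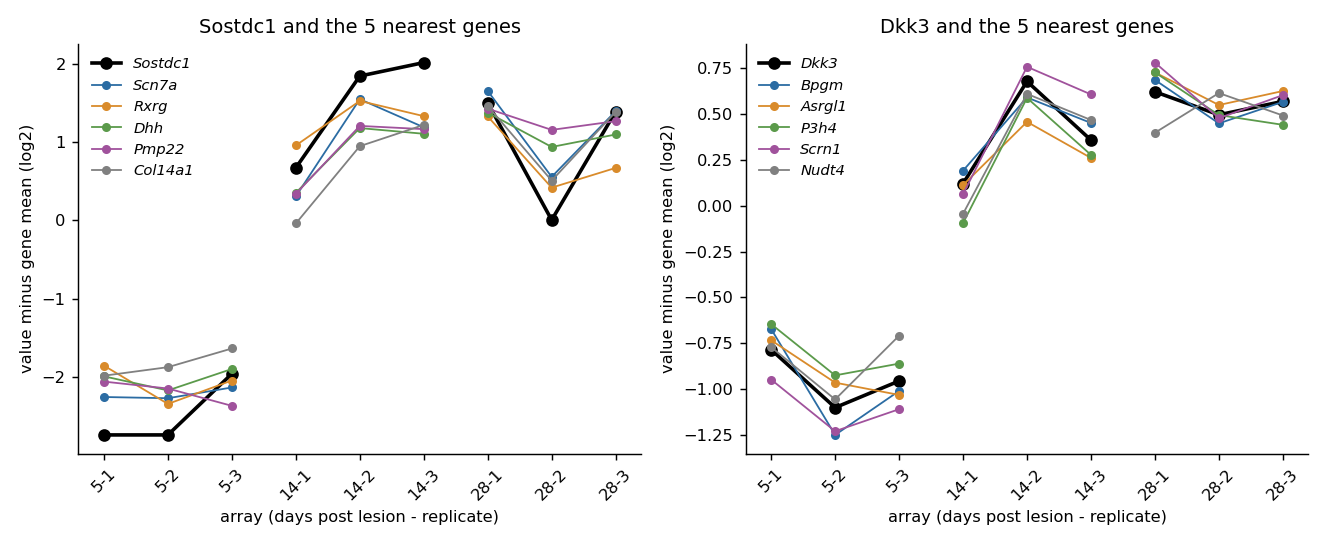
Level of Sostdc1 (left) and Dkk3 (right) and of the 5 genes nearest to each on the 9 arrays, as the log2 value minus the gene's own mean over all arrays; lines join arrays of 1 time point only to guide the eye. The nearest gene lies at a distance of 0.436 from Sostdc1 and 0.0853 from Dkk3.

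The summed Schwann cell markers, like Sostdc1, were higher on every later array than on any 5 dpl array. Of 8 Schwann cell markers 5 were measured, none of them at background on all arrays. Their summed linear level at 5, 14 and 28 dpl was 1358 to 1769, 4277 to 6806 and 5610 to 8333, respectively. Egr2, Dhh, Scn7a and Ngfr had higher means at both later times than at 5 dpl. Cdh19 stayed near background, with means of 7.36, 7.45 and 7.43. Scn7a and Dhh belong to that list, which therefore shares 2 genes with the nearest neighbours of Sostdc1. The 7 measured of 8 fibroblast and meningeal markers summed to 7426 to 15502, 10519 to 20740 and 17310 to 20311 at 5, 14 and 28 dpl. The 14 dpl range overlapped both others, and every 28 dpl array lay above every 5 dpl array. These markers did not all move with their sum. The brightest at 28 dpl, Col1a2, had means of 12.26 at 5 dpl and 13.66 at 28 dpl. Between 28 and 5 dpl the difference was 2.52 for Ogn, 0.94 for Slc6a13 and 0.59 for Col1a1. It was 0.13 for Col3a1, -0.18 for Dcn and -0.44 for Lum. Of 7 choroid plexus and ependymal markers 3 were measured, with sums of 397 to 439, 424 to 2002 and 422 to 551 at 5, 14 and 28 dpl. The transthyretin gene Ttr, the defining choroid plexus gene among them, was at 10.73 on 14 dpl replicate 3 and at 7.00 to 8.22 on the other 8 arrays. Sostdc1 was at 10.39 on 14 dpl replicate 1, where Ttr was at 7.33, and its difference between 14 and 5 dpl was 3.73 without replicate 3. The astrocyte and oligodendrocyte sums, given beside Dkk3, were also higher on every later array. So was the sum of the 4 measured of 6 oligodendrocyte progenitor markers, at 4729 to 5511, 5725 to 6589 and 6157 to 8066. Among them the difference between 28 and 5 dpl was 1.33 for Sox10, 0.69 for Cspg4, 0.40 for Pdgfra and -0.86 for Vcan. The part of these cell types in the level of Sostdc1 was not tested. In such dissected tissue, a change in the number of cells of a type and a change in RNA per cell cannot be told apart, here and in every later comparison.

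**Figure D3:**
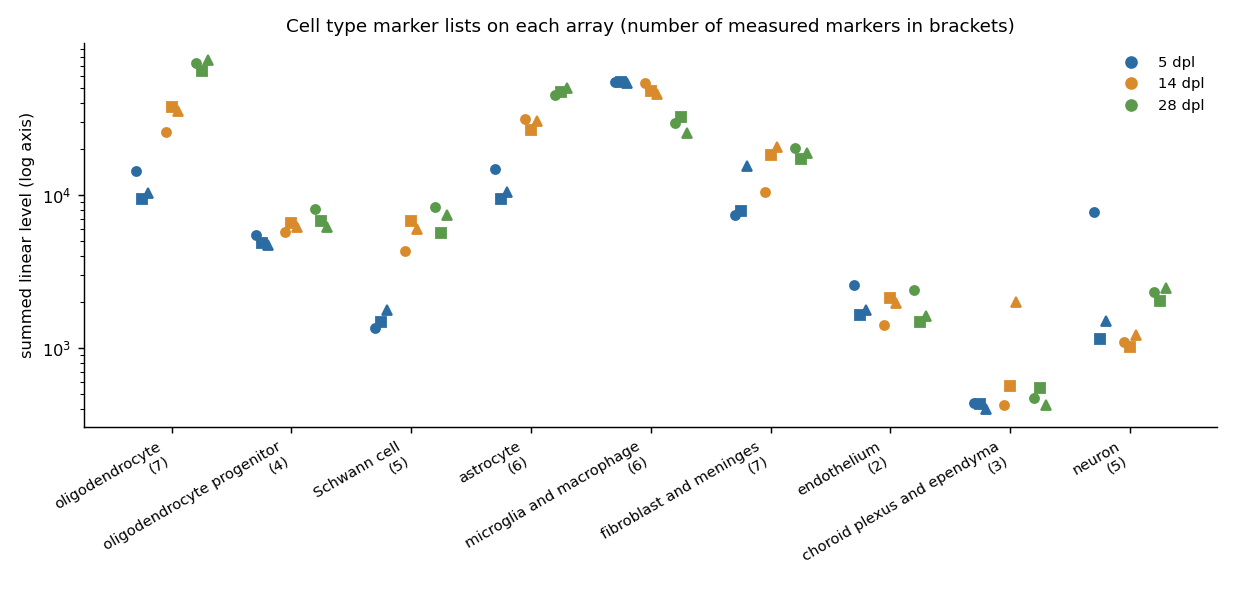
Summed linear level of the measured markers of 9 cell types on each array, on a log axis, coloured by time point, with circles, squares and triangles for replicates 1, 2 and 3 as in the plot of the 6 genes. The Schwann cell sum is 1358 to 1769 at 5 dpl and at least 4277 on every later array, and 1 circle at 7786 marks the neuron sum of 5 dpl replicate 1.

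Dkk3 encodes a secreted glycoprotein of the dickkopf family, whose founding member blocks Wnt co-receptors. Its level was 7.54, 7.23 and 7.37 at 5 dpl, 8.45, 9.01 and 8.69 at 14 dpl, and 8.95, 8.82 and 8.90 at 28 dpl. All 6 later arrays stood above the 3 early ones, 2 of which were above background. The means were 7.38 ± 0.16, 8.71 ± 0.28 and 8.89 ± 0.06 (SD, n = 3 each) at 5, 14 and 28 dpl. The difference was 1.33 (SE 0.14) between 14 and 5 dpl, in place 143 of 10552 from the highest, and 1.51 (SE 0.14) between 28 and 5 dpl, a 2.85-fold higher mean in place 231. Between 28 and 14 dpl it was 0.18 (SE 0.14), with a 95% interval from -0.13 to 0.48, so that only for that step did the groups overlap. As for Sostdc1, some 5 dpl arrays were at background, and the differences from 5 dpl are not fully measured.

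The 5 genes nearest to Dkk3 lay much closer to it, in absolute distance, than those nearest to Sostdc1. The distance was 0.0853 for Bpgm, the enzyme bisphosphoglycerate mutase, and 0.107 for Asrgl1, an asparaginase-like enzyme. It was 0.128 for P3h4, a protein of the collagen prolyl hydroxylase complex, 0.136 for Scrn1, secernin, and 0.140 for Nudt4, a Nudix hydrolase. Bpgm had means of 10.89, 12.28 and 12.44 at 5, 14 and 28 dpl. The summed astrocyte and oligodendrocyte markers, like Dkk3, were higher on every later array than on any 5 dpl array. The 6 measured of 7 astrocyte markers, with Aqp4 at background on all arrays, summed to 9362 to 14730, 26714 to 31479 and 45030 to 50485 at 5, 14 and 28 dpl. Among them the means of Gfap, Gja1, S100b and the dim Slc1a2 rose at each step. Slc1a3 did not keep rising: it differed by 0.54 between 14 and 5 dpl, -0.42 between 28 and 14 dpl and 0.12 between 28 and 5 dpl. The 7 measured of 8 oligodendrocyte markers summed to 9394 to 14390, 25861 to 37869 and 65199 to 76342. Both sums were higher at 28 than at 14 dpl on every array, whereas the Dkk3 ranges at those times overlapped. The Schwann cell and oligodendrocyte progenitor sums, given beside Sostdc1, were likewise higher on every later array than on any 5 dpl array. The part of any of these cell types in the level of Dkk3 was not tested.

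Bmp4 encodes a BMP ligand that holds oligodendrocyte progenitors back and steers them towards astrocytes in culture. Its level was 8.94, 8.31 and 8.86 at 5 dpl, 8.36, 8.12 and 8.27 at 14 dpl, and 8.33, 8.05 and 7.80 at 28 dpl. Replicate 2 at 5 dpl lay among the 14 dpl arrays, and the ranges overlapped in all 3 comparisons. The means were 8.70 ± 0.34, 8.25 ± 0.12 and 8.06 ± 0.27 (SD, n = 3 each) at 5, 14 and 28 dpl. The difference was -0.45 (SE 0.18) between 14 and 5 dpl, -0.19 (SE 0.18) between 28 and 14 dpl and -0.64 (SE 0.18) between 28 and 5 dpl. Without 5 dpl replicate 1, the array that stood apart, the difference between 28 and 5 dpl was -0.52. Leaving out 5 dpl replicate 3 gave -0.56 and leaving out 28 dpl replicate 3 gave -0.51. In each of these 3 fits Bmp4 no longer passed the threshold used for all probes. Without 5 dpl replicate 2 the difference between 14 and 5 dpl was -0.65, past that threshold.

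Id1, Id2 and Id3 encode inhibitors of helix-loop-helix transcription factors. Id1 was at 8.56, 8.16 and 8.40 at 5 dpl, 8.50, 8.56 and 8.49 at 14 dpl, and 8.36, 8.10 and 8.30 at 28 dpl. Id3 was at 8.25, 8.00 and 8.37 at 5 dpl, 8.29, 8.53 and 8.49 at 14 dpl, and 8.10, 7.97 and 8.19 at 28 dpl. For both genes, all 28 dpl arrays lay below all 14 dpl arrays, and replicate 2 was the lowest array at 5 and at 28 dpl. Groups at 14 and 28 dpl also did not overlap for 38.8% of all probes. The difference between 28 and 14 dpl was -0.26 (SE 0.10) for Id1 and -0.35 (SE 0.11) for Id3. Between 14 and 5 dpl it was 0.14 (SE 0.10) for Id1 and 0.23 (SE 0.11) for Id3, and between 28 and 5 dpl it was -0.12 for both, with the same errors, so that the later level overlapped the earliest. At the middle time point the mean of Id1 was 8.52 ± 0.04 (SD, n = 3) and that of Id3 8.44 ± 0.13 (SD, n = 3).

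Id2 is known to hold back oligodendrocyte differentiation when overexpressed. Its level was 11.65, 11.91 and 12.00 at 5 dpl, 11.65, 11.93 and 12.10 at 14 dpl, and 12.01, 11.96 and 12.35 at 28 dpl. The ranges overlapped in all 3 comparisons, and the lowest level of any array was 11.65. Its difference was 0.04 (SE 0.15) between 14 and 5 dpl, 0.21 (SE 0.15) between 28 and 14 dpl and 0.26 (SE 0.15) between 28 and 5 dpl. None of these passed the threshold, which does not show that the level was the same.

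**Figure D4:**
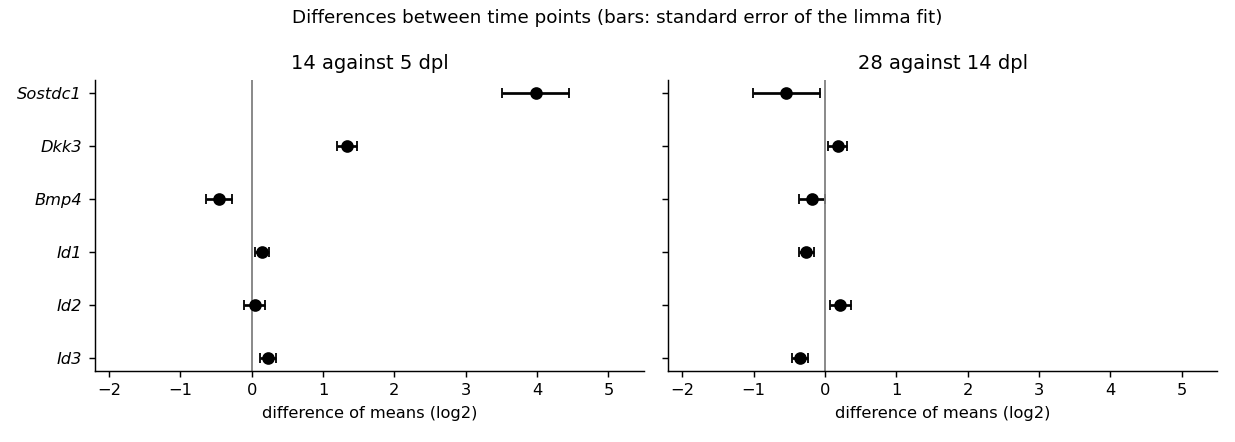
Difference of group means for the 6 measured genes, 14 minus 5 dpl (left) and 28 minus 14 dpl (right), on the log2 scale with the standard error of the limma fit as bars. Sostdc1 lies at 3.98 and Dkk3 at 1.33 on the left, and no gene lies beyond 0.54 in size on the right.

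Id1 and Id3 had all their 28 dpl arrays below their 14 dpl arrays and Id2 did not. Such a lack of overlap held for 38.8% of all probes, and none of the 3 genes passed the threshold in that comparison. The promoters of these 3 measured BMP targets are shown as a description only. Each is the stretch of 250 bases before the gene's start in the RefSeq promoter table, build GRCr8, on the gene's strand from 5′ to 3′. Capitals mark CCAAT boxes, in either orientation, and the TATAAA box.
Id1 (chr3:161671314-161671563, plus strand): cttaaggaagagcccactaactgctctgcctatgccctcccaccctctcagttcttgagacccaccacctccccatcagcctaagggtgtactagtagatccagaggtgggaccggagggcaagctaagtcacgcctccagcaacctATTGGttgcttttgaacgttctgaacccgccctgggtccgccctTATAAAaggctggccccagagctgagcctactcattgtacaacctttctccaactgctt
Id2 (chr6:47470996-47471245, minus strand): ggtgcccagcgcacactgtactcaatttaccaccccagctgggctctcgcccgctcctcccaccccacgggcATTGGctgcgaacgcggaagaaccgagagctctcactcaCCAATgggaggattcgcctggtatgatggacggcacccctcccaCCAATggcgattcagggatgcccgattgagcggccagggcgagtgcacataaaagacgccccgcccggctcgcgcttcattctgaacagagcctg
Id3 (chr5:153656041-153656290, plus strand): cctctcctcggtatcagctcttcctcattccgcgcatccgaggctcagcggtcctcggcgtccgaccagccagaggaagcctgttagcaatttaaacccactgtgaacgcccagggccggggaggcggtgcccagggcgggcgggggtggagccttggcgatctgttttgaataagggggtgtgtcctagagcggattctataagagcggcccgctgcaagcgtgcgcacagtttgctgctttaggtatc
The Id1 promoter holds 1 CCAAT box, as its reverse complement 98 bases before the start, and 1 TATAAA box 53 bases before it. The Id2 promoter holds 3 CCAAT boxes, 173, 134 and 90 bases before the start, the farthest as its reverse complement, and no TATAAA box. The Id3 promoter holds neither. CCAAT occurs on either strand in 34.0% of 33469 such windows in the table and TATAAA in 12.9%; both were picked after the sequences had been read. The GGCGCC core bound by SMADs and the CTTTGAT and CTTTGTT words bound by TCF and LEF factors were searched for on both strands in windows reaching 50 bases past the start. They were in none of the windows of Id1, Id2, Id3 and Bmp4, that of the unmeasured Id4 holds 1 GGCGCC, and 11.0%, 3.63% and 5.98% of all windows hold them. The absence of these letters from a window says nothing of binding, and the GC content was 54.8%, 62.8% and 61.2% for Id1, Id2 and Id3.

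Against the whole table, in limma's moderated test with Benjamini-Hochberg adjustment at a threshold of 0.05, 10.7% of all probes were higher and 10.1% lower at 14 than at 5 dpl. Of the 6 measured genes, 2 were past the threshold as higher, Sostdc1 and Dkk3, and 0 as lower, where 1, Bmp4, had an unadjusted p below the threshold. At 28 against 14 dpl, 7.49% of probes were higher and 7.48% lower, and 0 of the 6 passed in either direction in the limma test. At an unadjusted p below the threshold, 0 were higher and 2, Id1 and Id3, were lower. At 28 against 5 dpl, 20.2% of probes were higher and 24.1% lower, and 2 of the 6, Sostdc1 and Dkk3, were past the threshold as higher and 1, Bmp4, as lower. Groups did not overlap for 38.1% of probes at 14 against 5 dpl, 38.8% at 28 against 14 dpl and 53.8% at 28 against 5 dpl, and for 2 of the 6 genes each time. These counts describe genes that were chosen for their values. The median difference of the 6 was 0.19, -0.23 and 0.07 in the 3 comparisons, against -0.01, -0.01 and -0.03 over all probes. The comparisons share arrays and are not independent of each other.

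Other genes of the BMP pathway were taken from 4 lists of ligands, receptors, antagonists and SMADs, of which 19 of 50 genes were measured. At 14 against 5 dpl 6 rose and 1 fell, with a median difference of 0.19. These were 31.6% and 5.26% of the 19, against 10.7% and 10.1% of all probes. At 28 against 5 dpl 8 rose and 1 fell, with a median of 0.20. Those were 42.1% and 5.26%, against 20.2% and 24.1% of all probes. Among the genes that rose, Fst in both comparisons and Chrdl1 at 28 dpl were at background on every 5 dpl array. Such a gene could be called higher but hardly lower against 5 dpl, so the count of rises is partly set by background. At 28 against 14 dpl 4 rose and 1 fell, 21.1% and 5.26% of the 19 against 7.49% and 7.48% of all probes. Leaving out replicate 2 or 3 of the 28 dpl group gave 2 and 0. Leaving out a 14 dpl array also took the 4 to 2 (replicate 1 or 3) and the 1 to 0 (replicate 2 or 3). Most of the genes that rose were secreted antagonists and modulators, of which 8 of 17 were measured. Of these, 4 rose and 0 fell at 14 against 5 dpl, also at an unadjusted p below the threshold in the limma fit. Among the 4, Fstl3 (limma adjusted p = 0.0339) rested on single arrays. Its call was lost when any 1 of the 5 dpl arrays, 14 dpl replicate 2 or 3, or 28 dpl replicate 1 was left out. Nbl1, a BMP antagonist of the DAN family, was at 7.83, 7.79 and 8.03 at 5 dpl, 8.54, 8.59 and 8.68 at 14 dpl and 8.96, 9.16 and 9.06 at 28 dpl. It was higher on every array at each later time, by 0.72 (SE 0.08, limma adjusted p = 0.000667) at 14 against 5 dpl and by 0.45 (SE 0.08, limma adjusted p = 0.00859) at 28 against 14 dpl. Fst, follistatin, which binds activins and some BMPs, was at 7.08, 7.05 and 7.19 at 5 dpl, all background. It was at 7.66, 8.13 and 8.06 at 14 dpl, at least 1.56-fold higher (limma adjusted p = 0.00165), with the dim group set to the background, and at 7.50, 7.34 and 7.52 at 28 dpl. All 28 dpl arrays of Fst lay below all 14 dpl arrays. Its fall of 0.50 (SE 0.12, limma adjusted p = 0.0259) was lost, with adjusted p up to 0.0839, when 14 dpl replicate 2 or 3, or any 1 of the 28 dpl arrays, was left out. The call of Fst as higher at 28 against 5 dpl (limma adjusted p = 0.0417) also rested on single arrays. It was lost when any 1 of the 5 dpl arrays, 14 dpl replicate 3, or 28 dpl replicate 1 or 3 was left out.

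Fstl3, a follistatin-like binder of activins, ranged from 7.43 to 7.58, from 7.70 to 7.99 and from 8.35 to 8.63 at 5, 14 and 28 dpl. It rose by 0.98 (SE 0.09, limma adjusted p = 9.27e-05) between 5 and 28 dpl. Bmp1, which despite its name is a metalloprotease that cleaves the BMP antagonist chordin and procollagens, rose by 0.63 (SE 0.07, limma adjusted p = 0.000475) between 5 and 14 dpl. Chrdl1, a chordin-like antagonist, was at background on all arrays at 5 and 14 dpl and above it on 2 of 3 at 28 dpl, so no fold is given. It passed the test at 28 against 5 dpl (limma adjusted p = 0.00218). The classical antagonists Nog and Chrd have no named probe here.

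Receptors moved both ways. Bmpr1a, a type I BMP receptor, ranged from 8.03 to 8.08, from 8.64 to 8.81 and from 8.81 to 9.19 at 5, 14 and 28 dpl, and rose by 0.92 (SE 0.10, limma adjusted p = 0.000134) from 5 to 28 dpl. Acvr2b, a type II receptor for activins and BMPs, rose by 0.60 (SE 0.09, limma adjusted p = 0.000672) over the same interval. Acvrl1, a type I receptor of endothelium, fell by 0.64 (SE 0.07, limma adjusted p = 0.000162), and was lower on every later array than on any 5 dpl array. The 2 measured of 6 endothelial markers, Cldn5 and Flt1, summed to 1635 to 2598, 1408 to 2130 and 1473 to 2404 at 5, 14 and 28 dpl, ranges that overlap. Flt1 lay between 7.29 and 7.47 on all arrays, near background, so the sum is largely Cldn5. The part of endothelium in the level of Acvrl1 was not tested. Smad7, an inhibitory SMAD induced by TGF-beta and BMP signals, rose by 0.34 (SE 0.07, limma adjusted p = 0.00869) between 5 and 14 dpl and stayed at 8.14 to 8.26 at 28 dpl. For Smad6, the inhibitory SMAD more specific to BMP signals, the difference between 14 and 5 dpl was -0.05 (SE 0.07, limma adjusted p = 0.692). Bmp2, the ligand most like Bmp4, differed by -0.09 (SE 0.05, limma adjusted p = 0.301). Smad6 lay between 7.32 and 7.55 and Bmp2 between 7.21 and 7.43 on all arrays, near the background of 7.31, where a change could go unseen.

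**Figure D5:**
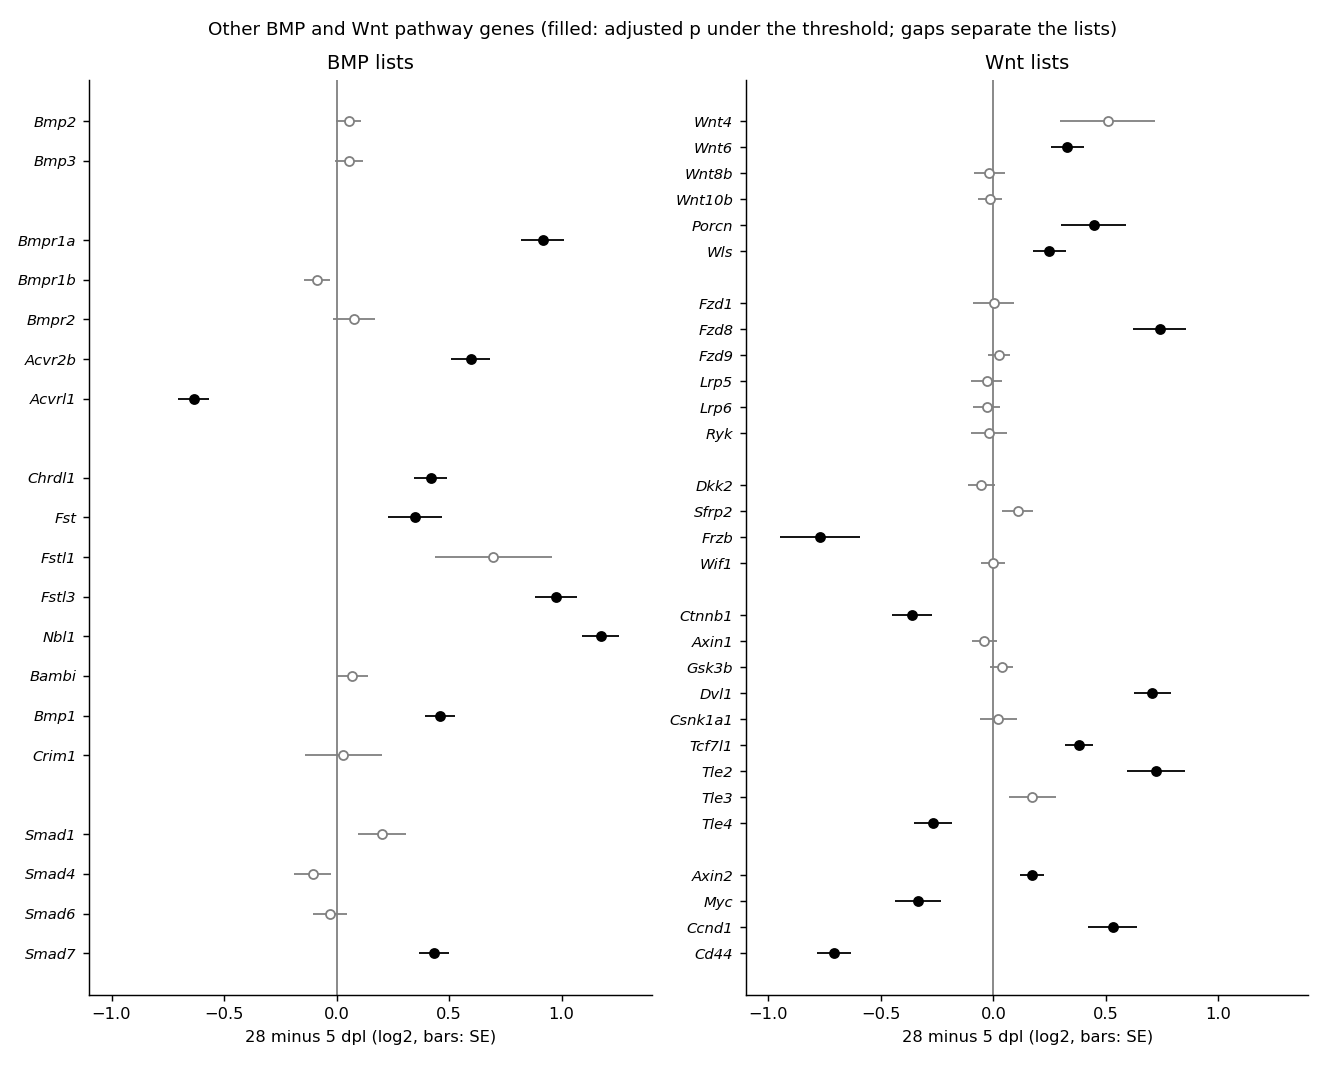
Difference of means between 28 and 5 dpl on the log2 scale, with standard errors, for the 19 measured BMP pathway genes (left) and 29 measured Wnt pathway genes (right), grouped by list and filled where the adjusted p was under 0.05. Nbl1 lies highest on the left at 1.17, and Frzb lowest on the right at -0.77; Chrdl1, Fst, Wnt8b, Fzd9, Sfrp2, Tcf7l1 and Axin2 were at background on every 5 dpl array.

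Of 76 genes in 5 Wnt lists 29 were measured, and 6 rose and 2 fell at 14 against 5 dpl, with a median difference of 0.03, which is 20.7% and 6.90% of the 29 against 10.7% and 10.1% of all probes. Without 14 dpl replicate 2 or 3 only 2 rose and 1 fell, and without 5 dpl replicate 3 only 1 fell. At 28 against 14 dpl 2 rose and 2 fell, 6.90% each way, near the 7.49% and 7.48% of all probes. Leaving out 5 dpl replicate 2 or any 1 of the 14 and 28 dpl arrays left 1 that rose, and leaving out any 14 dpl array or 28 dpl replicate 2 or 3 left 0 that fell. Without 28 dpl replicate 1, 1 fell. At 28 against 5 dpl 9 rose and 5 fell, with a median of 0.02. That is 31.0% and 17.2% of the 29 against 20.2% and 24.1% of all probes. Tcf7l1 and Axin2, counted as rising in both comparisons with 5 dpl, were at background on every 5 dpl array, with the same limit as Fst and Chrdl1. The 5 that fell became 3 without replicate 2 or 3 of either group. The 9 that rose ran from 6 to 10 over the alternatives. Among these, Porcn was lost without 5 dpl replicate 2 or 3, or when any 1 of the 28 dpl arrays was left out. Wls was lost without replicate 1 or 3 of either group, and both were lost with only the time points compared. Of the other Wnt antagonists 4 of 12 were measured, and 0 rose in the limma test at 28 against 5 dpl, also at an unadjusted p below the threshold. Among these 4, Sfrp2 lay between 7.05 and 7.38 and Dkk2 between 7.27 and 7.45 on all arrays, near background. Frzb, a secreted frizzled-related protein, was at 8.77, 8.17 and 8.65 at 5 dpl, 7.87, 7.87 and 7.75 at 14 dpl and 7.77, 8.05 and 7.46 at 28 dpl. Every later array lay below every 5 dpl array, the opposite order to Sostdc1 and Dkk3, and Frzb fell by 0.77 (SE 0.18, limma adjusted p = 0.00758) from 5 to 28 dpl. Wif1, the Wnt inhibitory factor, was between 7.13 and 7.34 on all arrays, near background, and its difference between 14 and 5 dpl was -0.11 (SE 0.05, limma adjusted p = 0.169).

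Among ligands and receptors, Wnt6 rose by 0.41 (SE 0.07, limma adjusted p = 0.00513) between 5 and 14 dpl, and the frizzled receptor Fzd8 rose by 0.62 (SE 0.12, limma adjusted p = 0.00739). Inside the cell, Dvl1, the dishevelled adaptor, ranged from 7.77 to 7.95, from 7.90 to 8.14 and from 8.48 to 8.65 at 5, 14 and 28 dpl. Its rise of 0.53 (SE 0.08, limma adjusted p = 0.00473) lay between 14 and 28 dpl. Ctnnb1, beta-catenin itself, fell by 0.36 (SE 0.09, limma adjusted p = 0.01) between 5 and 28 dpl. Tle2, a Groucho co-repressor, rose by 0.72 (SE 0.13, limma adjusted p = 0.00213) over that interval, and Tcf7l1, a TCF factor at background on all 5 dpl arrays, was at least 1.17-fold higher (limma adjusted p = 0.00141).

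Axin2, the most widely used Wnt target, was at background on all 5 dpl arrays, above it on 3 arrays at 14 dpl and on 1 at 28 dpl. It was at least 1.02-fold higher at 14 than at 5 dpl (limma adjusted p = 0.0375, and 0.0151 to 0.119 over the alternatives). That call was lost without 5 dpl replicate 2 or 3, any 1 of the 14 dpl arrays, or 28 dpl replicate 3, and with only the time points compared. Of the other target genes, Ccnd1, cyclin D1, rose by 0.53 (SE 0.11, limma adjusted p = 0.00432) and Cd44, a hyaluronan receptor also carried by macrophages, fell by 0.71 (SE 0.08, limma adjusted p = 0.000152) between 5 and 28 dpl. The 6 measured of 8 microglial and macrophage markers summed to 54239 to 55210, 45697 to 53781 and 25634 to 32411 at 5, 14 and 28 dpl, and their part in the level of Cd44 was not tested. The 4 measured target genes did not move one way: at 28 against 5 dpl 2 were past the threshold in each direction. One call each way rested on single arrays. Axin2 (limma adjusted p = 0.0264) was lost when 5 dpl replicate 2 or 3 or 28 dpl replicate 1 was left out, and the transcription factor gene Myc (limma adjusted p = 0.0262), among the lower, when replicate 2 or 3 of either group was left out. Both were also lost with only the time points compared.

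Of 13 helix-loop-helix factors that Id proteins bind or that act beside them, 6 were measured, and 2, Olig1 and Tcf4, rose in both comparisons with 5 dpl, 33.3% against 10.7% and 20.2% of all probes, with none lower also at an unadjusted p below the threshold in the limma fit. Olig1, an oligodendrocyte lineage factor, was at 12.95, 13.06 and 12.80 at 5 dpl, 13.37, 13.58 and 13.74 at 14 dpl and 14.00, 13.81 and 13.95 at 28 dpl. The 3 groups did not overlap, and the difference between 28 and 5 dpl was 0.98 (SE 0.11, limma adjusted p = 0.000163). Tcf4, an E protein, was at 11.04, 10.43 and 10.40 at 5 dpl, 11.02, 11.45 and 11.35 at 14 dpl and 11.65, 11.22 and 11.63 at 28 dpl. Its rise of 0.65 between 5 and 14 dpl (SE 0.20, limma adjusted p = 0.048) was lost, with adjusted p up to 0.157, when replicate 2 or 3 of either group or 28 dpl replicate 1 or 3 was left out, and with only the time points compared. It rose by 0.87 (SE 0.20, limma adjusted p = 0.00694) between 5 and 28 dpl, and 5 dpl replicate 1 lay within the 14 dpl range. The oligodendrocyte marker sum was higher over the same times, as given for Dkk3. The oligodendrocyte progenitor sum, given beside Sostdc1, was also higher on every later array than on any 5 dpl array. The part of either cell type in the levels of Olig1 and Tcf4 was not tested. Olig2 and Hes5 have no named probe here.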

How the data were processed

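The deposited files were a raw and a normalized table of the same 9 Illumina arrays. Of the raw table, with 22226 targets, only the detection p-value of each target and array was used, so named per the file headers. The deposited normalized values of the authors were taken as log2 from their range, and every column has the same distribution. Its transform, filter and genome build are not stated in the sources used here. The tables share 0 identifiers, so gene values come from the normalized table alone. Raw targets detected (p of 0.01 or lower) on any array numbered 10552, as many as the normalized probes. Taking both as the same targets, which could not be checked, the number undetected on each array gave a background of 7.25 to 7.31, of which the highest was used. GEO's platform annotation names 7679 probes with 1 symbol each and leaves 2873 unnamed here. RefSeq holds 7670 of the gene identifiers and changed 0 symbols.

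All 10552 probes were fitted in limma 3.58.1 under R 4.3.3 (lmFit and eBayes, 1 mean per time point, 9 arrays), with Benjamini-Hochberg adjustment over all probes and a threshold of 0.05. The fit was tested on simulated data. The genes and lists were chosen with earlier results of these data known. Named were the 6 measured genes, up to 4 genes per list with the smallest p among those past the threshold, a fixed set of genes, and the 5 genes nearest to Sostdc1 and to Dkk3. Where every array of a group was at background, a fold against that group is a lower bound ("at least"). Alternatives were each array left out, array weights, an intensity trend, cyclic loess, filters on dim probes, only the time points compared, and the replicate number as a block.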

Additional observations from a re-analysis of the deposited data

How the results depend on the processing

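Direction held for the 6 genes in every alternative where a call had been made, and Sostdc1 and Dkk3 stayed past the threshold against 5 dpl wherever they were kept. The filter for probes above background on all 9 arrays drops both, so the count of the 6 as higher fell from 2 to 0 at 14 against 5 dpl and at 28 against 5 dpl. Without 1 array, the count of the 6 as lower was 0 to 1 in each comparison. At 28 against 14 dpl it was 1, Id3, with array weights and with only the time points compared, against 0. Over the arrays left out, the counts of all probes at 14 against 5 dpl ran from 668 to 1227 higher and from 617 to 1352 lower, and at 28 against 14 dpl from 442 to 1082 higher and from 389 to 968 lower, and those of BMP and Wnt genes at 14 against 5 dpl from 7 to 13 higher. At 28 against 14 dpl the counts of BMP and Wnt genes ran from 3 to 6 higher and from 0 to 3 lower, against 6 and 3, and 5 were lower with array weights. Omissions that moved a BMP and Wnt count by over 1.5 times were, at 14 against 5 dpl, 14 dpl replicates 2 and 3 (7 higher each, against 12) and, at 28 against 14 dpl, 14 dpl replicates 1, 2 and 3 and 28 dpl replicates 2 and 3. The cause was not tested.

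Samples share only a replicate number: deviations of same-numbered samples correlated at -0.291 to 0.147, over 0.1 in 1 of 9 pairs. With the replicate number as a block, 500 probes were lower at 28 against 14 dpl, against 789, and 3 BMP and Wnt genes were higher and 1 lower, and Id2 passed at 28 against 5 dpl. No gene had several probes to choose from among the 6. Signal over background limits Sostdc1, Dkk3, Fst, Chrdl1, Tcf7l1 and Axin2 at 5 dpl.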
